A study of Mus musculus with 7 samples.

Results

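The acetylcholine receptors described here are 10 of the 32285 gene rows in the annotation of a single-nucleus RNA sequencing study of the mouse posterolateral cortical amygdala (plCoA), an olfactory area of the amygdala. They were chosen by symbol. They comprise the 5 muscarinic receptors Chrm1, Chrm2, Chrm3, Chrm4 and Chrm5, and the 5 nicotinic subunits Chrna3, Chrna4, Chrna5, Chrna7 and Chrnb2, and each symbol matched 1 row. The study asked whether molecular cell types follow the anteroposterior axis of plCoA. Nuclei came from the anterior domain (aplCoA) and the posterior domain (pplCoA) of male C57BL6J mice at 8 weeks of age, with no transgene, mutant allele or treatment named for either group. Animals of both groups were housed singly under sensory deprivation for the day before sacrifice and were anesthetized with ketamine and xylazine, and their nuclei were sorted by DNA stain. Tissue was pooled over several animals per replicate, so that p-values measure the spread between 3 pools per domain and not between animals. aplCoA replicate 1 was sequenced in 2 libraries, which were summed, and each other replicate in 1.

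Acetylcholine acts on 2 families of receptor. Muscarinic receptors are G protein-coupled: M1, M3 and M5 (Chrm1, Chrm3, Chrm5) act through Gq and phospholipase C, and M2 and M4 (Chrm2, Chrm4) through Gi and Go, which lower cyclic AMP and open GIRK potassium channels. Nicotinic receptors are pentameric cation channels: α7 (Chrna7) can form a channel by itself, α4 and β2 (Chrna4, Chrnb2) form the common high-affinity channel of the forebrain, α5 (Chrna5) joins such channels as an accessory subunit, and α3 (Chrna3) is best known from autonomic ganglia and the habenula. The cortical amygdala and neighbouring olfactory areas receive cholinergic fibres from the basal forebrain.

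The files hold counts of unique molecular identifiers (UMIs), each marking 1 captured RNA molecule. After filtering, 46412 nuclei remained and were placed by marker genes in 11 classes, without any acetylcholine receptor or other cholinergic gene in the clustering. The libraries held between 50812605 and 129624583 UMIs, and 3 to 28 barcodes were shared by any pair of libraries. Levels are given as CPM, the UMIs of a gene scaled to a class total of 1e6 UMIs, summed over the nuclei of a replicate. They were not compared between genes, because reads from introns were counted and the genes differ widely in span. In GRCm38 coordinates (GENCODE vM21), Chrm3 spans 485 kb (13:9875486-10360847, minus strand), Chrm2 140 kb (6:36388084-36528414, plus strand) and Chrna7 114 kb (7:63098692-63212569, minus strand). Chrm1 (19:8663789-8683587, plus strand), Chrna3 (9:55010111-55026562, minus strand), Chrna4 (2:181018380-181043546, minus strand), Chrna5 (9:54980880-55007779, plus strand) and Chrnb2 (3:89746195-89764632, minus strand) span 16.5 to 26.9 kb. Chrm4 (2:91927249-91928688, plus strand) and Chrm5 (2:112479171-112480769, minus strand) are annotated there as 1 exon each, of 1.44 and 1.6 kb. The authors counted on another GENCODE release of the same build, in which spans and exons may differ. Chrm2 overlaps 9330158H04Rik on the other strand and holds Mir490, Chrm3 overlaps 6 other genes, Chrna7 overlaps Gm44741 on its own strand, and Chrm1 and Chrnb2 overlap Gm22820 and Adar on the other strand, so that reads in shared stretches of the same strand are uncertain.

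The promoters of the 3 receptors that passed the domain test in a class are shown, because the domain results below turn on Chrm2 and Chrm3, and Chrm5 passed on 60 UMIs, having met the minimum only through aplCoA. Each is the stretch from 250 bases before to 50 bases after the RefSeq gene start in GRCm38.p6, on the gene's strand. Capitals mark TGACAG or its reverse complement CTGTCA, the core recognised by Meis homeodomain factors, which was searched on both strands because Meis1 was among the leading genes of 2 glutamatergic subclusters rich in Chrm3 (below), and which overlapped no other motif since no other was searched.
Chrm2, chr6:36387834-36388133, plus strand: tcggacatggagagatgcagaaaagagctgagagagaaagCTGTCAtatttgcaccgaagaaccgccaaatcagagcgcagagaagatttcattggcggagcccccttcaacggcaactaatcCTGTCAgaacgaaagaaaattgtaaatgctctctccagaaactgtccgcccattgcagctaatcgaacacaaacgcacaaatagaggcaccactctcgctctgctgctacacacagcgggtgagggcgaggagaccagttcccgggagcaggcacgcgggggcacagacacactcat
Chrm3, chr13:10360754-10361053, minus strand: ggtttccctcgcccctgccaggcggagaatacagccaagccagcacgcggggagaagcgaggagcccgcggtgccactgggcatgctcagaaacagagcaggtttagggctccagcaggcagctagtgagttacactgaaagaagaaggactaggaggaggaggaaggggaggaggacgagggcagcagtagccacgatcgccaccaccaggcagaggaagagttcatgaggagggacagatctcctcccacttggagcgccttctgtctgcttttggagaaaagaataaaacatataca
Chrm5, chr2:112480768-112481067, minus strand: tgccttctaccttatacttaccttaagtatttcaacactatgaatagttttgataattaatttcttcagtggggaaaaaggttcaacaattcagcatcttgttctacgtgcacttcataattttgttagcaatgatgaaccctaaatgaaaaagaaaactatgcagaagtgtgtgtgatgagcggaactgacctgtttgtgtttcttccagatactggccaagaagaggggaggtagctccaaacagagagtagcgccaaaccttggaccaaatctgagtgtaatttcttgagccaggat
The Chrm2 window held 2 matches, and the Chrm3 and Chrm5 windows held 0. Of all 32851 promoters of this length, 6300 (19.2%) held at least 1 match, and of the 10 windows of the 9 receptors that RefSeq matched, 3 did. The Chrm2 window had 52.7% G and C and 16 CpG, and the Chrm3 window 57.3% and 11 CpG, against medians of 52.7% and 7 CpG over all promoters. The Chrm5 window was poorer, with 39% and 3 CpG. These matches are descriptions of the letters only.

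The receptors gave 215802 UMIs in all nuclei. Chrm3 alone accounted for 167977 of them (77.8%), followed by Chrm2 with 18348 (8.5%), Chrna7 with 17166 (7.95%), Chrm1 with 8546 (3.96%) and Chrnb2 with 2565 (1.19%). Chrna4 had 820, Chrna5 120, Chrna3 99, Chrm5 98 and Chrm4 63 UMIs. Gene span was not corrected for, so that these are shares of UMIs and not of transcripts, and the 4 receptors with the fewest UMIs are given mainly as counts.

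Most neurons carried receptor RNA of at least 1 family. Among 20059 glutamatergic nuclei (median 12218 UMIs), 84.2% had a UMI of a muscarinic receptor, 40.3% of a nicotinic subunit among the 5 and 35.3% of both. Among 5111 GABAergic nuclei (median 7929 UMIs) the shares were 84.4%, 48.8% and 42.2%. Microglia, a class that is taken here as the background from free RNA, had 6.15%, 2.03% and 0.178% at a median of 3182 UMIs. Astrocytes, at a median of 3338 UMIs, had 6.59%, 5.92% and 0.379%, so that their muscarinic share was near that background. OPCs (oligodendrocyte precursor cells) had 30.8%, 16% and 5.41% at a median of 3950 UMIs. Arachnoid barrier cells (ABCs), a fibroblast-like meningeal class, had 58.9% for muscarinic receptors, 1.81% for nicotinic subunits and 1.14% for both.

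**Figure D1:**
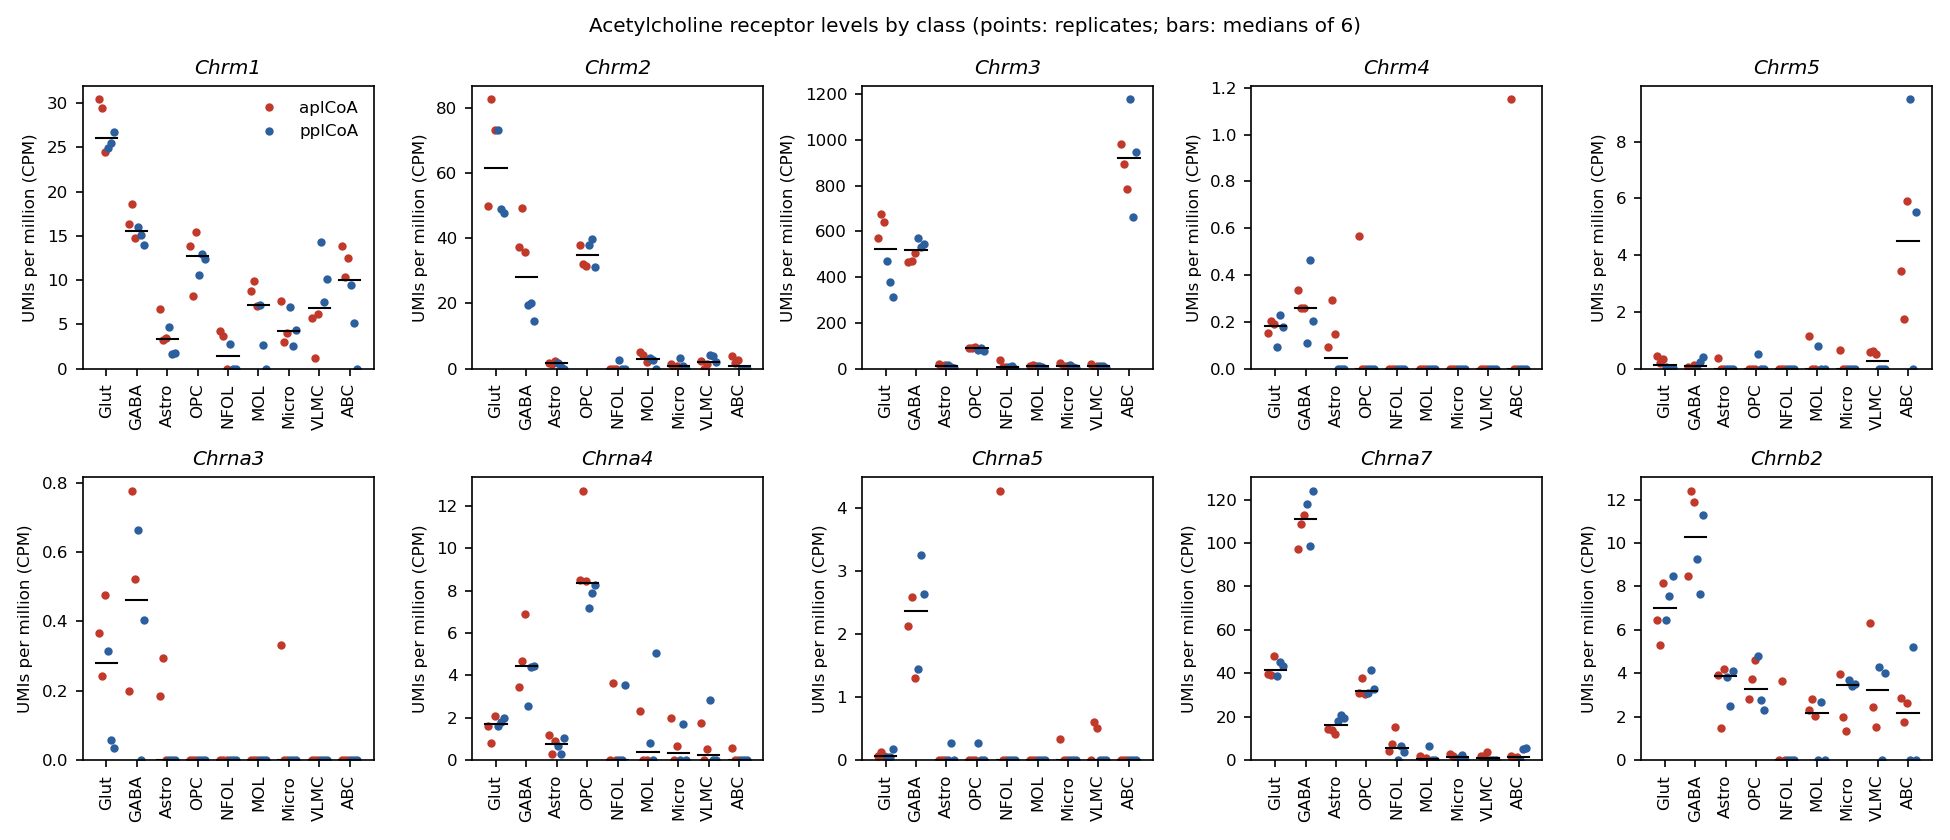
CPM of each receptor in the 9 classes with at least 20 nuclei in every replicate; points are the 6 replicates (red aplCoA, blue pplCoA) and bars their medians, with a separate linear axis for each gene. Chrm1 and Chrm2 were highest in glutamatergic nuclei, Chrna5 and Chrna7 in GABAergic nuclei, Chrna4 in OPCs, and Chrm3 was high in both neuronal classes and in ABCs.

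The order of the classes is given as a description, since classes were defined by clusters. Neighbours are said to overlap where their ranges over the 6 replicates do. Chrm1, the main Gq-coupled muscarinic receptor of forebrain principal neurons, lay at 24.5 to 30.4 CPM in glutamatergic nuclei (median 26.1). This range stood above the 14 to 18.6 CPM (median 15.6) of GABAergic nuclei, and glutamatergic nuclei were higher in 6 of 6 replicates. OPCs (median 12.7) and the remaining classes formed an overlapping series down to newly formed oligodendrocytes (median 1.41). The free RNA, read in barcodes of up to 100 UMIs, held 30 to 66 CPM of Chrm1 over the 7 libraries (median 52.3), a range that met that of glutamatergic nuclei at its lower end, and its part in the levels of the lower classes was not tested.

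Chrm2, the Gi-coupled receptor known both as a presynaptic autoreceptor and on cortical interneurons, was also highest in glutamatergic nuclei. Its 6 values there ran from 47.9 to 82.6 CPM (median 61.5), above those of OPCs (31.2 to 39.8, median 34.9). OPCs overlapped GABAergic nuclei, which spread widely from 14.6 to 49.4 CPM (median 28). All other classes lay far lower, led by mature oligodendrocytes with a median of 2.95 CPM, whose range did not reach that of GABAergic nuclei. Free RNA held 23 to 39.1 CPM.

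Chrm3, the Gq-coupled receptor known for smooth muscle and glands, had the highest median in ABCs, at 920 CPM (664 to 1177). Glutamatergic nuclei (312 to 676, median 522) overlapped ABCs at the upper end, and GABAergic nuclei (465 to 570, median 520) lay inside the glutamatergic range. These 3 classes stood apart from OPCs (75.3 to 93.3, median 89.4), and OPCs from astrocytes (2.06 to 18.5, median 12). Microglia had a median of 10.5 CPM against 142 to 342 CPM in free RNA. Among neurons, 75.5% of glutamatergic and 79.9% of GABAergic nuclei had a Chrm3 UMI, against 3.98% of microglia. With each nucleus thinned to 2000 UMIs the shares were 47.2%, 51.7% and 2.46%, so that both neuronal classes remained far above microglia at equal depth.

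Chrm4, the other Gi-coupled member and the muscarinic receptor of striatal projection neurons, gave few UMIs. It gave 44 UMIs in glutamatergic nuclei and 12 in GABAergic nuclei, with medians of 0.184 and 0.26 CPM and overlapping ranges. Chrm5, the Gq-coupled receptor best known from midbrain dopamine neurons, gave 60 UMIs in glutamatergic nuclei, 5 in GABAergic nuclei and 19 in ABCs. By CPM, ABCs were the highest (median 4.49 CPM), but their replicates ran from 0 to 9.49 and overlapped every class below them. Free RNA held 0.29 to 1.08 CPM of Chrm4 and 0 to 1.22 CPM of Chrm5. Chrm4 and Chrm5 are annotated as 1 short exon each (above), and how far this limited their counts was not tested.

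The nicotinic subunits had another order. Chrna7 was highest in GABAergic nuclei, at 97.1 to 124 CPM (median 111), apart from glutamatergic nuclei at 38.7 to 47.9 (median 41.4). The ratio of GABAergic to glutamatergic levels within a replicate lay between 2.17 and 3.04. OPCs overlapped glutamatergic nuclei (30.7 to 41.7, median 31.9), and astrocytes followed without overlap (12.1 to 21, median 16.3). Astrocytes had a Chrna7 UMI in 4.37% of nuclei against 0.569% of microglia, at similar depth. Free RNA held 18.6 to 36.5 CPM of Chrna7 (median 26.1), which overlaps the levels in OPCs and astrocytes, and its part in them was not tested.

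Chrna4 was highest in OPCs, at 7.16 to 12.7 CPM (median 8.36). GABAergic nuclei came next at 2.54 to 6.9 (median 4.43), then glutamatergic nuclei at 0.815 to 2.1 (median 1.71). The first 2 ranges did not overlap the next, whereas that of glutamatergic nuclei overlapped astrocytes (0.276 to 1.21). Free RNA held 3.25 to 18.1 CPM of Chrna4, a range that covers the level in OPCs. Its partner Chrnb2 was not ordered in the same way: GABAergic nuclei (7.67 to 12.4, median 10.3) overlapped glutamatergic nuclei (5.29 to 8.5, median 7.01), which stood above astrocytes (median 3.88, highest 4.19), and OPCs were at a median of 3.27. Free RNA held 9.2 to 17.1 CPM of Chrnb2.

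Chrna5 was found mainly in GABAergic nuclei. It gave 92 UMIs in 5111 GABAergic nuclei and 22 in 20059 glutamatergic nuclei, or 1.3 to 3.25 CPM (median 2.36) against 0.0554 to 0.178 (median 0.0714), with no overlap. Chrna3 gave 77 UMIs in glutamatergic nuclei and 18 in GABAergic nuclei, with medians of 0.279 and 0.463 CPM and overlapping ranges, and 0 in OPCs and ABCs. Free RNA held 0 to 1.35 CPM of Chrna5 and 0 to 0.542 CPM of Chrna3.

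Within the 2 neuronal classes the receptors were unevenly spread over subclusters, which were numbered by size from 1 to 21 (glutamatergic) and from 1 to 17 (GABAergic) and were also made without the receptors. The levels below are a description, over all nuclei of a subcluster, with the range over replicates of at least 20 nuclei. Chrm3 varied widely among glutamatergic subclusters. It reached 3495 CPM (3249 to 3801 in 2 replicates) in subcluster 20, a group of 94 nuclei led by Nxph1 and Cdh6. In subcluster 11, led by Ebf1 and Meis1, it was 1472 CPM (1378 to 1743 in 4 replicates), and in subcluster 5, led by Meis1 and Foxp2, 1127 CPM (907 to 1429 in 4 replicates).

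The lowest Chrm3 level of any glutamatergic subcluster, 21.5 CPM (18.9 to 25 in 4 replicates), was in subcluster 15, led by Grik3 and Etv1. The same nuclei had 113 CPM of Chrna7 (95 to 133), more than 19 of the other 20 glutamatergic subclusters. The exception was subcluster 21, whose 42 nuclei all came from 1 replicate and where Chrna7, at 643 CPM, was itself among the leading genes. Chrm3 was at 1429 CPM and Chrm2 at 0 there, and no replicate check was possible. From in situ data of the Allen atlas, the paper located its own Etv1-marked glutamatergic subtype outside plCoA, in the posterior basomedial amygdala. Whether subcluster 15 holds those neurons was not tested, so that its levels may not be those of plCoA.

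Chrm2 was highest in the 2 largest glutamatergic subclusters. It was 145 CPM (113 to 265 in 6 replicates) in subcluster 1, where it was among the 10 leading genes with Zfp536 and Smoc2, and 120 CPM (85.4 to 164) in subcluster 2, with Gpc6 and Col23a1 among its leading genes. It was lowest among subclusters of more than 1000 nuclei in subclusters 4 (8.99 CPM), led by Smoc1, and 10 (11 CPM), led by Pde11a and including Reln. Of the 60 Chrm5 UMIs, 19 were in subcluster 5, 17 in subcluster 11, 9 in subcluster 6 and 6 in subcluster 13, and none were in subclusters 1 and 20.

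Among GABAergic subclusters, Chrm2 was 1186 CPM in subcluster 17, whose 24 nuclei were led by Chrm2 itself with Npy and Nos1, which encode neuropeptide Y and neuronal nitric oxide synthase. 9330158H04Rik, the gene that overlaps Chrm2 on the other strand, was also among its leading genes. Chrm2 was 267 CPM in subcluster 16 (47 nuclei, led by Foxp2 and Meis2) and 131 CPM (75.3 to 152 in 4 replicates) in subcluster 12, led by Npsr1. In contrast it was 1.02 CPM in subcluster 4, led by Vip and Penk, and 1.21 CPM in subcluster 2, which includes Lamp5 among its leading genes. Subcluster 4 had the highest Chrm3 level of the GABAergic subclusters, 1022 CPM (886 to 1066 in 5 replicates).

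Chrna7 was highest in GABAergic subclusters 9 (305 CPM, 198 to 402), led by Cadps2 with Cnr1 and Cck among its 10 leading genes, and 8 (272 CPM, 231 to 363), with Reln and Ndnf. It was lowest in subcluster 10 (14 CPM, 0 to 21.1). Chrna5 was highest in subcluster 5, which had Crh among its leading genes, at 13.9 CPM. Chrna4 was 11.4 CPM there, but nearly as high in subclusters 12 (10.9 CPM) and 4 (9.53 CPM). Chrna3 was highest in subcluster 11, at 4.07 CPM. These levels rest on few molecules, with 187 UMIs of Chrna4, 92 of Chrna5 and 18 of Chrna3 in all GABAergic nuclei.

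**Figure D2:**
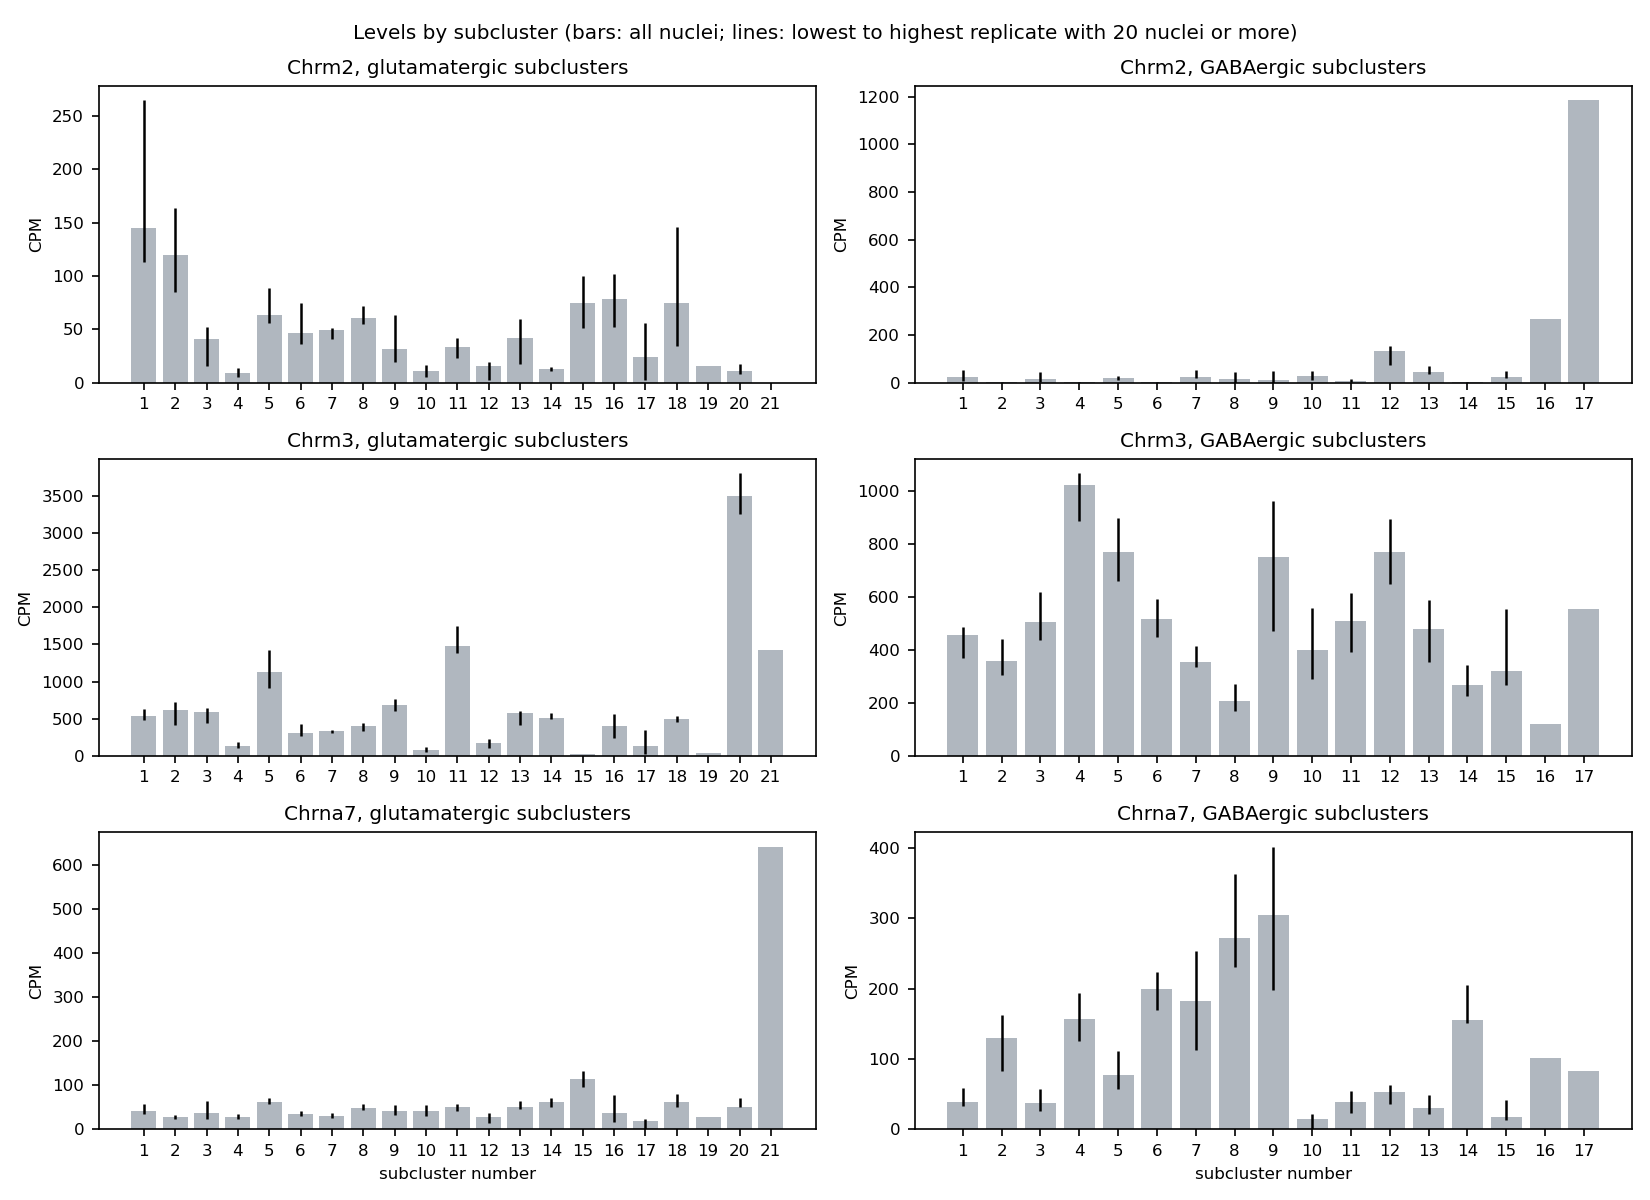
CPM of Chrm2, Chrm3 and Chrna7 in each glutamatergic (left) and GABAergic (right) subcluster, on linear axes that start at 0; bars are all nuclei of a subcluster and lines run from the lowest to the highest replicate with at least 20 nuclei, where there were such replicates. Chrm3 peaked in glutamatergic subclusters 20, 11 and 5, with 21 also high, Chrm2 in GABAergic subcluster 17, and Chrna7 in glutamatergic subcluster 21 and GABAergic subclusters 8 and 9.

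Glutamatergic neurons of plCoA use the vesicular glutamate transporters VGluT2 (Slc17a6) or VGluT1 (Slc17a7), and the receptors were compared between nuclei with a UMI of one and none of the other. There were 2597 Slc17a6-only nuclei, 12809 Slc17a7-only, 2559 with both and 2094 with neither. Slc17a6-only nuclei were shallower (median 9571 UMIs against 13470), and pplCoA replicates 2 and 3 had 39 and 24 of them. Sums per replicate and transporter were fitted by edgeR's quasi-likelihood test with replicate as a block, and 36.9% of all 18504 genes tested passed the threshold of 0.05, so that passing it was common. The fits here and below scaled the sums against each other (TMM), whereas the CPM are unscaled. Larger sums also weigh more in a fit than small ones. A log2 difference therefore need not equal the ratio of the CPM beside it. The Slc17a6-only sums held 3251730 to 14817254 UMIs in aplCoA and 257550 to 2285379 in pplCoA, so that aplCoA weighed most in the transporter contrasts.

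Chrm3 was higher in Slc17a6-only nuclei in every replicate. Its levels in the 6 replicates ran from 796 to 1387 CPM (median 1031), against 311 to 547 (median 451) in Slc17a7-only nuclei, without overlap. How many of all genes did not overlap between the transporters was not counted. The log2 difference was 1.13 ± 0.11 (SE), a 2.2-fold difference, with an adjusted p of 1.45e-07. Nuclei with both transporters had a median of 537 CPM and lay between the other groups in 4 of 6 replicates.

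Chrm1 and Chrm2 passed the test in the other direction. Chrm1 had medians of 23.3 CPM in Slc17a6-only and 26.8 CPM in Slc17a7-only nuclei, and a log2 difference in the scaled fit of -0.60 ± 0.09 (adjusted p = 5.42e-05). It was lower in 4 of 6 replicates, the exceptions being pplCoA replicates 2 (30.8 against 25.3 CPM) and 3 (27.2 against 27.1 CPM). Chrm2 had medians of 53.3 and 68.3 CPM, a log2 difference of -0.65 ± 0.08 (adjusted p = 4.03e-06), and was lower in 5 of 6 replicates. The exception was pplCoA replicate 3, with 62.1 against 48.8 CPM. With pplCoA alone neither passed, at -0.40 (adjusted p = 0.459) for Chrm1 and -0.46 (adjusted p = 0.164) for Chrm2.

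Chrna7 was higher in Slc17a6-only nuclei in 5 of 6 replicates, with medians of 53 and 41.2 CPM and a log2 difference of 0.24 ± 0.09 (adjusted p = 0.0387). Of 19 alternatives, 9 lost this call with the sign kept, and a further 2 lost it and turned the sign. With the sign kept, it was lost without aplCoA replicate 1 (0.19, adjusted p = 0.246), aplCoA replicate 2 (0.16, 0.234), aplCoA replicate 3 (0.18, 0.248) or pplCoA replicate 3 (0.20, 0.0747), by DESeq2 (0.21, 0.23), without the minimum of 60 UMIs (0.18, 0.142), with all barcodes (0.21, 0.0693), without the block (0.18, 0.241) and without subcluster 16 (0.22, 0.0634). The sign turned when nuclei were thinned to equal depth (-0.19, 0.609) and with pplCoA alone (-0.03, 0.979). The other 2 subunits tested did not pass: Chrna4 had 0.96-fold the level (log2 -0.06, 95% interval -0.63 to 0.52) and Chrnb2 1.08-fold (log2 0.11, interval -0.17 to 0.40). Chrm5 was below the minimum of 60 UMIs over all sums, with 32 UMIs in 2597 Slc17a6-only nuclei and 8 in 12809 Slc17a7-only nuclei. Without that minimum it passed as higher in Slc17a6-only nuclei (3.81 ± 0.55, adjusted p = 5.08e-06). Of the 6 receptors tested, 0 had a transporter contrast that differed between aplCoA and pplCoA by edgeR, with 0.184% of all genes passing that interaction test. Unadjusted, 1151 genes were under 0.05, and Chrna7 was the receptor with the interval farthest from 0 (log2 0.39, 0.01 to 0.76, adjusted p = 0.775).

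**Figure D3:**
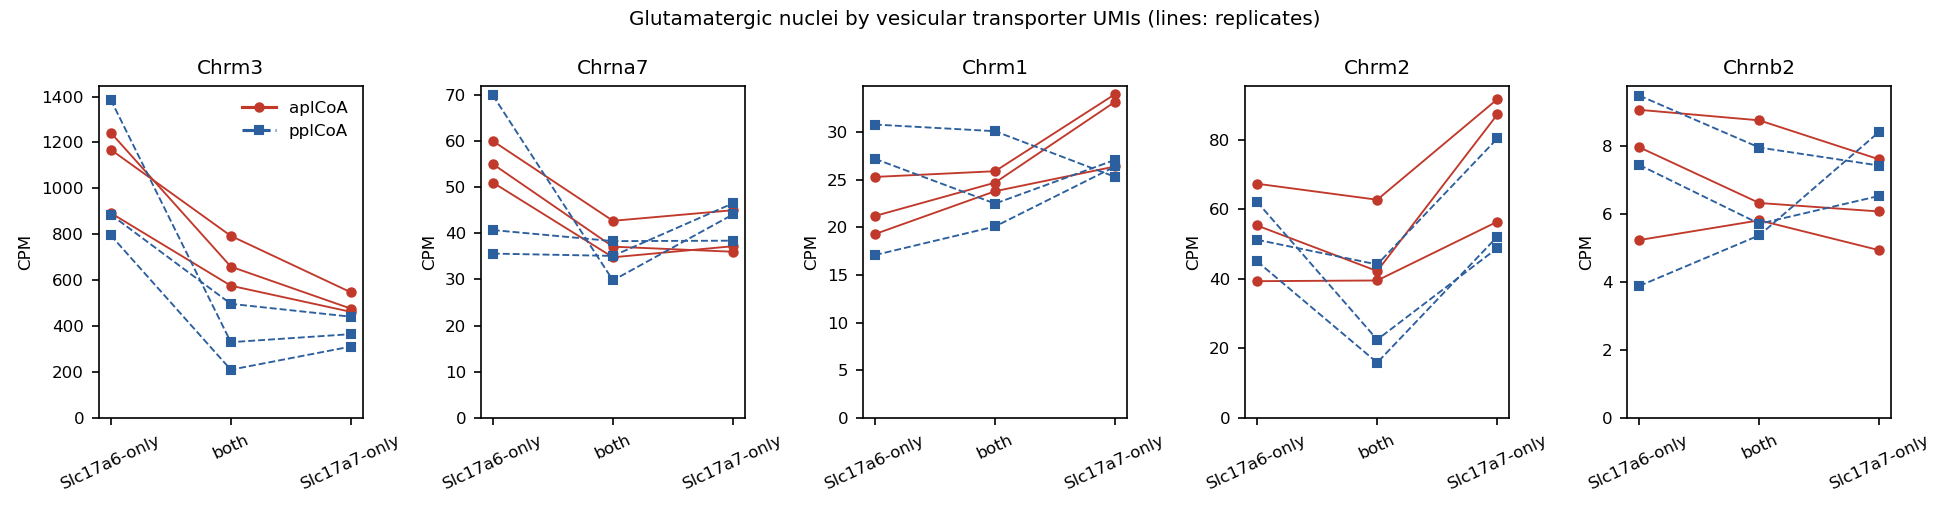
CPM of 5 receptors in glutamatergic nuclei with only Slc17a6, both transporters or only Slc17a7; each line is 1 replicate (red circles aplCoA, blue squares pplCoA) and axes are linear from 0. Chrm3 fell from Slc17a6-only to Slc17a7-only nuclei in all 6 replicates, whereas Chrm1 and Chrm2 rose in most and Chrnb2 had overlapping values throughout.

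The domains were compared within classes on sums per replicate, by edgeR's quasi-likelihood test over all genes with at least 60 UMIs in the class. In glutamatergic nuclei 8 receptors were tested. Chrm3 was higher in aplCoA: its levels were 573, 676 and 640 CPM in the 3 aplCoA replicates and 471, 378 and 312 CPM in the 3 pplCoA replicates, so that the domains did not overlap. The means were 630 ± 52.5 and 387 ± 80.2 CPM (SD, n = 3 each), and the log2 difference was 0.62 ± 0.14 (SE), or 1.53-fold, with an adjusted p of 0.0152. Of all 19178 genes tested, 16.3% passed and 38.0% did not overlap between the domains, and 2 of 8 receptors passed. One of them, Chrm5, reached the minimum of 60 UMIs only through aplCoA, so that Chrm3 alone passed free of that selection. The Chrm3 call was lost without aplCoA replicate 2 (0.55, adjusted p = 0.0603), pplCoA replicate 2 (0.61, 0.0658) or pplCoA replicate 3 (0.49, 0.0524).

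Chrm5 was the other receptor that passed in glutamatergic nuclei, on few molecules. The aplCoA replicates had 37, 5 and 14 UMIs and the pplCoA replicates 3, 0 and 1. The log2 difference was 3.19 ± 0.61 (adjusted p = 0.00825), with an interval of 1.84 to 4.54. DESeq2 gave 3.25 with no adjusted p for this gene. With exactly 60 UMIs, 56 of them from aplCoA, Chrm5 met the minimum only through the domain where it was high. Leaving out any replicate that held a Chrm5 UMI took it below the minimum, so that it was tested only without pplCoA replicate 2 (2.72, adjusted p = 0.031).

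The remaining 6 did not pass. Chrm1 lay at 30.4, 29.4 and 24.5 CPM in aplCoA and 24.9, 25.5 and 26.7 CPM in pplCoA, a log2 difference of 0.04 with an interval of -0.18 to 0.25. Chrm2 spread widely within each domain, at 49.8, 82.6 and 73.3 CPM in aplCoA and 73.3, 49 and 47.9 CPM in pplCoA (0.18, interval -0.28 to 0.64). Chrna7 lay at 39.5, 39.1 and 47.9 against 38.7, 45.3 and 43.3 CPM (-0.10, interval -0.32 to 0.13). Chrnb2 (-0.25, interval -0.62 to 0.12), Chrna4 (-0.30, interval -0.92 to 0.32) and Chrna3 (1.10, interval -0.17 to 2.37) overlapped between domains as well. Chrna3 passed without pplCoA replicate 1 (2.80, adjusted p = 0.00801), which held 17 of the 20 UMIs of pplCoA. The 60 UMIs left, 57 of them from aplCoA, just met the minimum, so that Chrna3 too was then tested only through the domain where it was high.

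GABAergic nuclei gave another picture. Chrm2 was 37.4, 49.4 and 35.8 CPM in aplCoA and 19.6, 20.2 and 14.6 CPM in pplCoA, so that the lowest aplCoA replicate stood above the highest pplCoA replicate. The means were 40.9 ± 7.44 and 18.1 ± 3.09 CPM (SD, n = 3 each), a log2 difference of 1.08 ± 0.15 (SE), or 2.12-fold, with an adjusted p of 0.000919. It passed in each of the 17 alternatives run, between 0.95 and 1.16. Without subclusters 16 and 17 (47 and 24 nuclei), where Chrm2 was highest, the difference was 1.14 (adjusted p = 0.0088). Subcluster 12, also rich in Chrm2 and unequally shared between the domains (below), was kept in that fit. Of the 14726 genes tested in this class, 7.27% passed and 26.0% did not overlap.

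Chrm3 in GABAergic nuclei was lower in aplCoA. The aplCoA replicates were at 465, 470 and 505 CPM and the pplCoA replicates at 570, 534 and 546 CPM, with means of 480 ± 21.8 and 550 ± 18.5 CPM (SD, n = 3 each). The groups did not overlap, and the log2 difference was -0.25 ± 0.07 (adjusted p = 0.0451). The call was lost in 10 of 17 alternatives (adjusted p up to 0.143), among them without aplCoA replicate 1 (-0.22, 0.114), aplCoA replicate 2 (-0.24, 0.127), pplCoA replicate 1 (-0.23, 0.093), pplCoA replicate 2 (-0.27, 0.0944) or pplCoA replicate 3 (-0.25, 0.117). The other 5 receptors tested overlapped between domains and did not pass: Chrna7 (97.1, 109 and 113 against 118, 98.5 and 124 CPM, log2 -0.16, interval -0.36 to 0.05), Chrm1 (0.05, -0.25 to 0.36), Chrna4 (0.38, -0.29 to 1.05), Chrna5 (-0.26, -1.05 to 0.53) and Chrnb2 (0.10, -0.33 to 0.52).

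**Figure D4:**
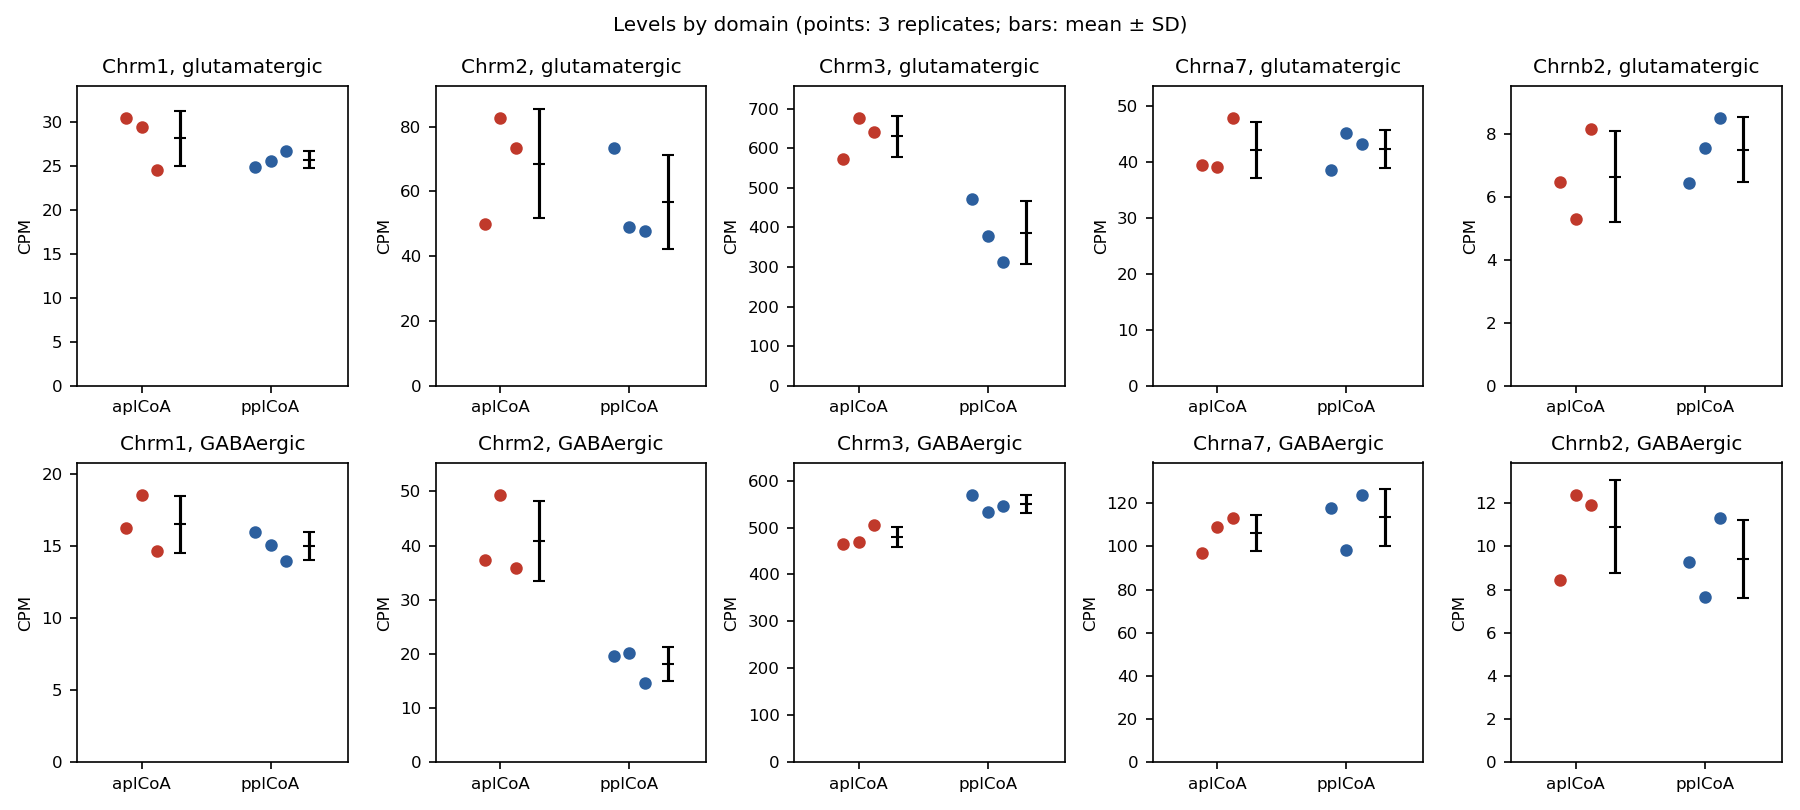
CPM of 5 receptors in glutamatergic (top) and GABAergic (bottom) nuclei of aplCoA (red) and pplCoA (blue), on linear axes from 0; points are the 3 replicates of each domain and the black mark beside them the mean ± SD. The domains did not overlap for Chrm3 in either class, with aplCoA higher in glutamatergic and lower in GABAergic nuclei, nor for Chrm2 in GABAergic nuclei.

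The opposite signs of Chrm3 and the unequal size for Chrm2 were tested as an interaction of domain with class, in 1 fit over both neuronal classes that was added after these values were seen. The domain contrast in glutamatergic minus that in GABAergic nuclei was 0.90 ± 0.11 for Chrm3 (adjusted p = 0.000596) and -0.98 ± 0.17 for Chrm2 (adjusted p = 0.00573), on the log2 scale. These were 2 of 9 receptors tested, with 3.43% of all 19656 genes passing. Both passed in all 12 alternatives of this fit, and the other 7 receptors did not pass.

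Class averages mix many subclusters, so the domain levels were also read within them, as a description over subclusters with at least 20 nuclei in each domain. These ratios are of unscaled CPM, unlike the class fits. Chrm3 was higher in aplCoA in 9 of 18 glutamatergic subclusters and higher in pplCoA in the other 9, with a median log2 ratio of 0.00, although the class as a whole was 1.53-fold higher in aplCoA in the scaled fit. The nuclei of the domains were spread unequally over the subclusters, which were made with genes that differ between domains, so that their shares are no test. The Chrm3-rich subclusters 5 and 11 held 12.8% and 5.96% of glutamatergic nuclei of aplCoA against 1.35% and 0.657% of pplCoA, with 1116 and 1451 CPM of Chrm3 in aplCoA against 1268 and 1743 CPM in pplCoA. Subcluster 4, poor in Chrm3, held 1.4% against 18.3% of nuclei, with 196 against 130 CPM. Other subclusters ran the other way. Subclusters 2 and 14, with 667 and 563 CPM of Chrm3 in aplCoA and 582 and 507 CPM in pplCoA, held 7.5% and 0.675% of aplCoA nuclei against 17.8% and 6.14% of pplCoA nuclei. Subcluster 6, lower in Chrm3 (308 against 266 CPM), held 11.4% against 1.83%. Subcluster 3, with Fign among its leading genes, held 15.8% against 1.14%, with 589 against 636 CPM of Chrm3. The paper describes its Fign subtype as likely derived from the cortex-amygdala transition area next to aplCoA. Subcluster 3 was kept in the class fits, and its part in the domain differences was not tested. In GABAergic nuclei Chrm3 was higher in pplCoA in 12 of 15 subclusters (median log2 ratio -0.21). Chrm2 in GABAergic nuclei was higher in aplCoA in 10 of 15 (median 0.53 over the 10 with enough UMIs). GABAergic subcluster 12, rich in Chrm2, held 7.02% of nuclei in aplCoA against 1.44% in pplCoA, with 141 against 71.6 CPM of Chrm2. Chrm1, which did not pass the class test, was higher in aplCoA in 16 of 18 glutamatergic subclusters (median 0.25 over 17). Its unscaled class means were 28.1 CPM in aplCoA and 25.7 CPM in pplCoA, beside a log2 difference of 0.04 in the scaled fit. Subclusters of a class share their replicates and are not independent of each other.

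**Figure D5:**
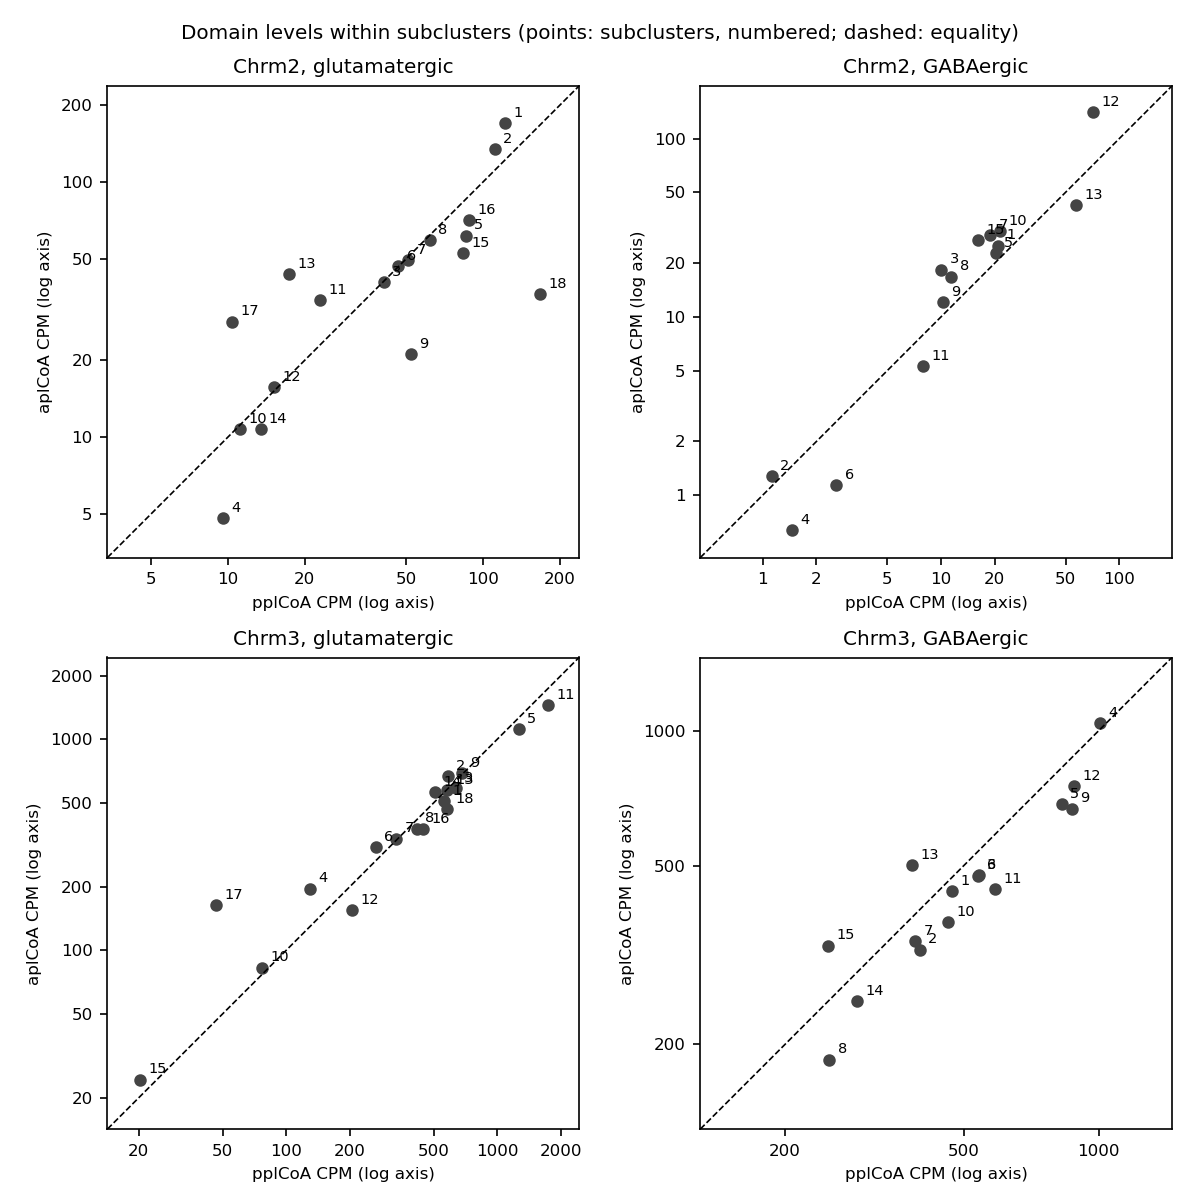
CPM of Chrm2 (top) and Chrm3 (bottom) in aplCoA (vertical) against pplCoA (horizontal) for each glutamatergic (left) and GABAergic (right) subcluster with at least 20 nuclei and 1 UMI in each domain, on log axes; numbers name subclusters and the dashed line is equality. Glutamatergic Chrm3 lay evenly about the line over a wide range of levels, whereas GABAergic Chrm3 was mostly below it and GABAergic Chrm2 mostly above it.

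Limiting the comparison to Slc17a7-only glutamatergic nuclei, where 6 receptors were tested and 6.72% of genes passed, 0 receptors passed by edgeR (of all genes 4161 were under 0.05 unadjusted). Chrm3 was at 462, 547 and 476 CPM in aplCoA and 441, 365 and 311 CPM in pplCoA, without overlap, as were 29.3% of genes. Its log2 difference there was 0.37 ± 0.13 (adjusted p = 0.106), and it passed by DESeq2 (0.37, 0.0473), without the minimum of 60 UMIs (0.37, 0.0439) and without pplCoA replicate 1 (0.51, 0.0138).

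In astrocytes and OPCs no receptor passed, and the other glia had too few UMIs or were not compared. In astrocytes, where 0.465% of genes passed, Chrna7 had means of 13.5 ± 1.26 CPM in aplCoA and 19.6 ± 1.47 CPM in pplCoA (SD, n = 3 each), without overlap, as did 18.2% of genes (log2 -0.59 ± 0.17, adjusted p = 0.158). Chrm3 in astrocytes had means of 14.2 ± 4.21 and 7.35 ± 6.6 CPM (0.75 ± 0.42, adjusted p = 0.525). It passed without the minimum of 60 UMIs (0.77, 0.0226) and without pplCoA replicate 1 (1.85, 0.0216), at levels near those of microglia. In OPCs, where 4.26% of genes passed and 20.2% did not overlap, the log2 differences of the 5 receptors tested lay between -0.15 and 0.23, with Chrna4 not overlapping (0.23 ± 0.28, adjusted p = 0.756). In mature oligodendrocytes, where 1.37% of genes passed, no receptor reached 60 UMIs.

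Several measures moved with the domain in neurons, and their part in the receptor differences was not tested. The mean mitochondrial percentage of glutamatergic nuclei was 0.0195 to 0.0304 in aplCoA and 0.0114 to 0.0151 in pplCoA, and that of GABAergic nuclei 0.0283 to 0.0466 and 0.0214 to 0.023. The mean ribosomal percentage was 0.29 to 0.349 against 0.206 to 0.239 in glutamatergic and 0.401 to 0.437 against 0.296 to 0.35 in GABAergic nuclei, so that neither measure overlapped between domains. Of the marker lists of other cell types in glutamatergic nuclei, the sum over 4 OPC markers was 565 to 602 CPM against 215 to 432. This was nearly all Lhfpl3 (563 to 599 against 213 to 427), with the defining marker Pdgfra at 0.611 to 1.3 against 0.96 to 1.7. The 5 VLMC (vascular leptomeningeal cell) markers summed to 4.22 to 6.68 against 8.29 to 20.6 CPM. Dcn (0.815 to 0.978 against 2.25 to 13.8) and Col1a1 (0.977 to 3.36 against 3.94 to 5.62) were higher in pplCoA, Slc6a13 was lower (0.618 to 1.26 against 0.249 to 0.554), and Col1a2 and Lum overlapped. In GABAergic nuclei the OPC sum was 299 to 326 against 339 to 355, the newly formed oligodendrocyte sum 203 to 221 against 224 to 239, the astrocyte sum 116 to 133 against 109 to 115, and the macrophage sum 1.81 to 4.67 against 1.01 to 1.77 CPM. The first was nearly all Lhfpl3 (291 to 317 against 331 to 345), with Pdgfra at 0.776 to 1.87 against 2.32 to 2.65 and Cspg4 and C1ql1 overlapping. The second was nearly all Fyn (199 to 218 against 219 to 237), and Bcas1, Enpp6 and Neu4 overlapped. The astrocyte sum was mostly Slc1a2 (91.8 to 96 against 83.9 to 86.8), and its other markers overlapped. In both classes 0 markers of these lists were at 0. The ABC sum, a class high in Chrm3, overlapped between domains in glutamatergic (8.15 to 10.9 against 7 to 8.62) and GABAergic nuclei (23 to 26 against 17.9 to 25.6).

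A list of 38 other cholinergic genes was read in the same fits. In glutamatergic nuclei 29 were tested, of which 5 were higher in aplCoA and 5 in pplCoA, or 10 of 29 beside 16.3% of all genes, with a median log2 difference of 0.04 against 0.00 over all genes. The chaperones and Ly6 family modulators of nicotinic receptors had 3 of 8 higher in aplCoA. Tmem35a, which encodes the chaperone NACHO needed for assembly of α7 receptors, had a log2 difference of 0.94 (adjusted p = 0.00236). Lypd6 had 0.87 (adjusted p = 0.0197) and Lypd6b 2.08 (adjusted p = 0.00236), whereas Lypd1, another modulator, was lower at -0.44 (adjusted p = 0.0114). The means of Lypd6 were only 2.12 CPM in aplCoA and 1.08 CPM in pplCoA, beside 159 to 215 CPM in astrocytes. Those of Lypd6b were 4.85 and 1.05 CPM, beside 10.8 to 15 CPM in astrocytes. The part of free RNA in these low levels was not tested. Of the 8 genes of muscarinic signalling, Plcb4, a phospholipase C downstream of Gq, had 1.85 (adjusted p = 0.00453) and Gnai2, a Gi subunit, 0.50 (adjusted p = 0.0326). Of the 3 GIRK channel genes, Kcnj6 had -0.42 (adjusted p = 0.00981) and Kcnj9 -0.40 (adjusted p = 0.0183). Bche, which encodes the hydrolase butyrylcholinesterase, was higher in pplCoA (-1.04, adjusted p = 0.00568), as was the muscle-type subunit gene Chrnb1 (-0.73, adjusted p = 0.039). Chrnb1 too was low, with means of 1.78 CPM in aplCoA and 2.84 CPM in pplCoA.

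In GABAergic nuclei 26 of the list were tested, with Tmem35a, Lypd6, Lypd6b and Gna11 higher in aplCoA and Bche in pplCoA, beside 7.27% of all genes. In astrocytes, OPCs and mature oligodendrocytes 0 of 24, 25 and 15 tested passed. In Slc17a7-only nuclei Tmem35a and Plcb4 were higher in aplCoA and Bche in pplCoA, of 29 tested, beside 6.72% of all genes. Between Slc17a6-only and Slc17a7-only nuclei 9 of 29 were higher and 8 lower, beside 36.9% of all genes. The higher ones included Ache, which encodes acetylcholinesterase, with a log2 difference of 1.66, Plcb4 with 2.67 and Lypd6b with 4.03. The lower ones included Bche with -2.13 and the 3 GIRK channel genes Kcnj3, Kcnj6 and Kcnj9. The genes that define cholinergic neurons were sparse. Chat, the enzyme that makes acetylcholine, had 30 UMIs in glutamatergic and 39 in GABAergic nuclei, and Slc18a3, its vesicular transporter, 4 and 2. Slc5a7, the choline transporter, had 18 UMIs in glutamatergic and 88 in GABAergic nuclei, where its level ran from 0.259 to 3.95 CPM (median 1.94).

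The genes whose pattern over classes was most like each receptor were found by Pearson's r of log2(CPM + 1) over 54 sums, which came from 9 classes in 6 replicates and so share replicates and depth. Chrm3 was most like Galnt14 (0.93) and Prmt8 (0.91), Chrm2 like Gm26871 (0.92) and Nrg3 (0.92), and Chrna7 like 4930415C11Rik (0.92) and Egfem1 (0.92). Celf5 (0.83) was among the genes most like Chrm1. Chrna5 was most like Gm31218 (0.87) and Popdc3 (0.84), Chrna4 like Ripply2 (0.81) and Kcnk3 (0.79), and Chrnb2 like Lrrc3b (0.81) and Trhde (0.77). For the sparsest receptors the values were Slc26a7 (0.81) and Slc47a1 (0.81), an ABC marker, for Chrm5, Klhl14 (0.81) and Stac2 (0.79) for Chrna3, and Esm1 (0.66) and Gzmk (0.63) for Chrm4.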

How the data were processed

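The authors prepared nuclei from microdissected, pooled tissue, sorted them, made 10x 3' v3.1 libraries and aligned them with Cell Ranger 5.0.0 to mm10, with intronic reads included. They deposited, for each of 7 libraries, raw UMI counts for every gene in every barcode, neither filtered nor normalized. Samples were grouped by the labelled region, as 3 replicates for each domain, and same-numbered replicates were not treated as pairs because their deviations from the group means correlated by over 0.1 for every number in no class.

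Barcodes with at least 1000 genes (52201) were limited to 5 scaled median absolute deviations above the median UMIs and 5 interquartile ranges above the upper quartile of mitochondrial and ribosomal percentages, and the highest Scrublet-type scores (1% per 1000 nuclei) were removed as doublets (4123). Clustering used Pearson residuals (theta 100), 5000 variable genes, 50 components, 15 neighbours and Leiden resolution 1.0 in scanpy 1.11.5 (Python 3.11.15), without the receptors and 38 other cholinergic genes. Subclusters used 3000 genes, 30 components and resolution 0.6. Gene names are those of the authors' annotation, in which 78 rows share a symbol with another.

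UMIs were summed per class and replicate and tested in edgeR 4.0.16 (R 4.3.3; quasi-likelihood, TMM, at least 60 UMIs) with Benjamini-Hochberg adjustment over all genes tested, threshold 0.05. Alternatives were DESeq2 1.42.0, RLE size factors, the likelihood ratio test, other filters, all barcodes, replicates left out, a replicate block, each library of aplCoA replicate 1 alone, classes by marker UMIs, each domain alone, at least 2 transporter UMIs and nuclei thinned to 2000 UMIs. Intervals of differences are 95% intervals from the fit. On simulated counts in which 200 genes were changed 4-fold, 95% were recovered in glutamatergic nuclei and 78% in mature oligodendrocytes. The simulated spread was the same for all genes. These shares therefore do not give the power for smaller differences, such as those of Chrm2 and Chrm3.

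All 10 receptors are named, together with the 2 genes most like each (among genes with at least 600 UMIs) and those of the cholinergic list that passed in glutamatergic nuclei, except for a few genes that are not reported here. The receptors, lists and tests were chosen with earlier results of these data known. Subclusters and other genes named by their values were chosen after these were seen. Spatial, imaging and behavioural data were not analysed here.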

Additional observations from a re-analysis of the deposited data

Results flagged for a closer look

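In OPCs, Chrna4 stood at 12.7 CPM in aplCoA replicate 2, while the other 5 replicates lay between 7.16 and 8.48 CPM. The gap to the nearest replicate was 0.762 of the whole range. Of the receptor and class groups of 6 replicates examined, 27 in number, 1 stood out in this way, and chance alone marks about 1 in 20. The level rests on 131 UMIs in OPCs over all replicates. The domain effect differed between the neuronal classes for 2 receptors. The aplCoA against pplCoA contrast in glutamatergic minus that in GABAergic nuclei was 0.90 for Chrm3 and -0.98 for Chrm2 on the log2 scale (interaction test, edgeR, adjusted p = 0.000596 and 0.00573).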

How the results depend on the processing

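Of 735 values of single receptors under an alternative, 702 kept their side of the threshold, 25 lost and 6 gained a call, and 2 lost a call and turned sign. The 2 were Chrna7 between the transporters, with pplCoA alone (-0.03) and with nuclei thinned to 2000 UMIs (-0.19). Most of the 735 values belong to receptors that did not pass as reported. Alternatives in which a receptor was not tested are not among them. Chrm5 in glutamatergic nuclei by DESeq2, which gave no adjusted p, was counted among the 25. Values that passed in neither fit were counted among the 702 even where their sign changed. Chrm1 in GABAergic nuclei was such a case (0.05 as reported, down to -0.02). The causes were not tested. By CPM over all nuclei of a class, the highest class was the same for 10 of 10 receptors with all barcodes and with the mean over nuclei. For Chrm4 this was ABCs, on 2 UMIs, whereas by the median over replicates it was GABAergic nuclei. Counts of genes passing moved by over 1.5 times as follows. Requiring a UMI in 10% of nuclei gave 2022 in glutamatergic nuclei (3124 as reported), 27 in astrocytes (66 as reported) and 0 for the transporter by domain interaction (34 as reported). No filter gave 729 in astrocytes, 1883 in Slc17a7-only nuclei (1214 as reported), 227 for the transporter by domain interaction and 1350 for the class by domain interaction (674 as reported). The likelihood ratio test gave 349 in astrocytes, 169 in mature oligodendrocytes (111 as reported), 2211 in Slc17a7-only nuclei, 146 for the transporter by domain and 1104 for the class by domain interaction. DESeq2 gave 217 in astrocytes, 262 in OPCs (529 as reported) and 67 in mature oligodendrocytes, where all barcodes gave 32. For aplCoA replicate 1, library 1 alone gave 285 in GABAergic nuclei (1070 as reported), 0 in astrocytes, 116 in OPCs, 17 in mature oligodendrocytes and 632 in Slc17a7-only nuclei, and library 2 alone gave 699 in the last. Between the transporters, pplCoA alone gave 1558 and thinning 2055 (6836 as reported).

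Leaving out 1 replicate in turn gave 1265 to 4146 in glutamatergic nuclei, 458 to 1155 in GABAergic nuclei, 0 to 391 in astrocytes, 149 to 620 in OPCs, 28 to 150 in mature oligodendrocytes, 0 to 2258 in Slc17a7-only nuclei, 4667 to 7052 between the transporters, 2 to 295 for the transporter by domain and 283 to 1372 for the class by domain interaction. With the replicate number as a block, 3167 genes passed in glutamatergic nuclei, 929 in GABAergic nuclei, 511 in astrocytes, 703 in OPCs, 316 in mature oligodendrocytes and 888 in Slc17a7-only nuclei, and Chrm3 in GABAergic nuclei had -0.25 (adjusted p = 0.0808). The pairing of same-numbered replicates was not shown by their correlations in glutamatergic and GABAergic nuclei, which were -0.09 to 0.09. For replicate number 1 they were higher in astrocytes (0.33), mature oligodendrocytes (0.23) and OPCs (0.15). Those of numbers 2 and 3 in these 3 classes lay between -0.01 and 0.11. Whether the replicates of number 1 share a batch was not tested. Without the block between the transporters, 5761 genes passed. The alternatives without glutamatergic subcluster 16, without GABAergic subclusters 16 and 17 and the class by domain interaction were chosen after seeing the data. Without subcluster 16 Chrm3 kept its call in glutamatergic nuclei (0.62, adjusted p = 0.0146). Chrm4 was below the minimum of 60 UMIs in every class and was not tested in the comparisons reported.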
